A study of Mus musculus with 12 samples.

Results

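The promoters of ribosomal protein (RP) genes were examined in ATAC-seq libraries, in which a transposase cuts open chromatin and the reads counted in a region measure its accessibility. The members were 46 mouse genes for proteins of the large (Rpl) and small (Rps) subunit of the cytosolic ribosome. The promoter of a gene was the region of the deposited count table within 500 bp of an annotated start site, and where several regions lay so close the one with the most counts was taken. A region was found for 45 of the 46 genes, 28 of the large and 17 of the small subunit, out of 121336 regions in all and 19118 promoter regions by the same distance. Rps25, whose protein belongs to the small subunit, had no region this close. Counting every region near a start site, the members had 51.

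The cells came from mice of 8 to 12 weeks on the C57BL/6 background, either wild type (WT) or littermates homozygous for a deletion of the upstream regulatory element of Spi1 (genotype UREd/d, written URE), the gene that encodes the ETS transcription factor PU.1. No agent was given to any group. Bone marrow of the femurs was enriched for c-Kit+ cells, and from it 2 gates were sorted: LSK, the Lin-Sca-1+c-Kit+ gate that holds stem cells and early progenitors, and GMP, the Lin-Sca-1-c-Kit+CD16/32+ gate of granulocyte-monocyte progenitors. With 2 genotypes this gave 4 groups of 3 libraries, which are named by genotype and gate (WT-LSK, for example). The gates hold mixtures of cells, the deletion is present in every cell of the mouse and not only in the sorted ones, and a region that is open in fewer cells cannot be told apart from one that is less open in each cell.

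RP genes are transcribed in nearly every cell, since each ribosome needs its proteins in equal amounts. Many of their promoters are GC-rich, lack a TATA box and start within a run of pyrimidines, the 5′ terminal oligopyrimidine (TOP) that lets growth signals control the translation of the mRNA. Partial loss of some of them harms blood formation: RPS19, RPL5 and RPL11 are mutated in Diamond-Blackfan anaemia, and loss of RPS14 accounts for much of the anaemia of the 5q- syndrome. Since every growing cell uses them, such promoters can also serve as a check on how libraries were scaled to each other.

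Library totals ran from 23072701 to 62204826 counts, and every RP promoter held at least 473 counts in every library. The deletion was seen in the labelled libraries: the region of chromosome 2 from 91082790 to 91083700, upstream of Spi1, had a mean CPM (a count scaled to the effective size of its library) of 39.4 in WT-LSK and 43.8 in WT-GMP. Its means were 0.0618 for URE-LSK and 0.0305 for URE-GMP. Regions of 5 of 6 stem cell marker genes summed to between 215 and 257 CPM in the LSK libraries and to between 157 and 181 in the GMP libraries, and those of 6 of 7 GMP marker genes to between 25.1 and 51.1 in LSK and between 203 and 349 in GMP. Of the markers of other lineages, Pax5, Cd79a, Cd3e, Cd3g, Cd8a, Klf1, Hbb-bt and Epor had no region at a start site. Ly6a, which encodes the Sca-1 of the LSK gate, and Fcgr3, which encodes CD16, also had none. Ebf1 of the B lineage lay between 4.48 and 7.50 CPM over all libraries. The regions at the start of Lck, a T lineage gene, summed to between 9.26 and 13.3 CPM in LSK and between 1.97 and 7.37 in GMP, and whether such cells had a part in the results was not tested. At the RP promoters WT-GMP replicate 1 stood apart. They took 0.214% of the counts in WT-GMP replicate 1 but 0.193% and 0.192% in the other WT-GMP libraries. Other promoters deviated the same way. Median log2 deviations from the mean over all libraries were 0.03, -0.12 and -0.09 in WT-GMP replicates 1 to 3 for all promoter regions. For housekeeping promoters they were 0.07, -0.06 and -0.05, and for RP promoters 0.17, -0.11 and -0.16. WT-GMP replicate 1 held 24225870 counts, against 45780754 and 42282272 in replicates 2 and 3. The main counts past the test that rest on that group are therefore also given without WT-GMP replicate 1. Of the members whose call or size changed without it, only some are named.

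The letters of 10 promoters are shown first. Some are of members chosen for their role in blood formation, growth signalling or the ribosome's core, of which Rpl3 and Rps14 are not shown. The others are of the 2 members with the largest and the 2 with the smallest mean difference between genotypes (Rps9 and Rps15, Rpl4 and Rpl35). Each of the 10 is 200 bases, from 170 before to 30 after the RefSeq start on GRCm38.p6. It is read 5′ to 3′ on the gene's strand and lies in the promoter or the 5′ end of the transcript. Capitals mark the ETS motif CCGGAAGT, the PU.1 motif GAGGAAGT and the SP/KLF motif GGGCGG on either strand, and a run of at least 5 pyrimidines that covers the start.
Rps19, chr7:24884422-24884621, plus strand: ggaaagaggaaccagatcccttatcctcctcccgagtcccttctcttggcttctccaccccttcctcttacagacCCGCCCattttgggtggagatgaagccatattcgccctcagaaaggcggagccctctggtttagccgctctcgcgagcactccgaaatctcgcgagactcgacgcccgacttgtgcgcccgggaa
Rpl5, chr5:107900358-107900557, plus strand: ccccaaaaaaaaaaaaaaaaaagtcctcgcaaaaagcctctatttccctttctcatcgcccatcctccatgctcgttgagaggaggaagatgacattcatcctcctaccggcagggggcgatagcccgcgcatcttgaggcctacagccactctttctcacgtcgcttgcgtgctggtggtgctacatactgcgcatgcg
Rpl11, chr4:136053364-136053563, minus strand: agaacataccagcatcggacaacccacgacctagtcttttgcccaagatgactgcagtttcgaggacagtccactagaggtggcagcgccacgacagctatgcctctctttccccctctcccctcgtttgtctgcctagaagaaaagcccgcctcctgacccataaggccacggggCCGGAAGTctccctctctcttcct
Rpl22, chr4:152325556-152325755, plus strand: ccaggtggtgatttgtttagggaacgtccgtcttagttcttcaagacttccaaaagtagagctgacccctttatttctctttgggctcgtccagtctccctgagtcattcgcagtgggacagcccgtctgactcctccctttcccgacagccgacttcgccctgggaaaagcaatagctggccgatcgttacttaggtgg
Rps6, chr4:86857338-86857537, minus strand: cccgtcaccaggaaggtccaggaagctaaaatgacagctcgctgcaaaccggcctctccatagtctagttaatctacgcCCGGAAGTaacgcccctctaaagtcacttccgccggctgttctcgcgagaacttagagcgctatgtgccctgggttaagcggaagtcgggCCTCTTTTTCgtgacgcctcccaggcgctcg
Rps3, chr7:99483680-99483879, minus strand: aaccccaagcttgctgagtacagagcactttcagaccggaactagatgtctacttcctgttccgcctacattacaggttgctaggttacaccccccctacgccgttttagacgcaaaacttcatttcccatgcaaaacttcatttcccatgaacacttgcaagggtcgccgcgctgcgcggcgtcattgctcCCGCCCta
Rps9, chr7:3703871-3704070, plus strand: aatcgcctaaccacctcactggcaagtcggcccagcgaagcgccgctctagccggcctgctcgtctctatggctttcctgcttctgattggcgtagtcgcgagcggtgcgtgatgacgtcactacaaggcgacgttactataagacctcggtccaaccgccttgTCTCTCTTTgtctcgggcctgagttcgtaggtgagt
Rps15, chr10:80292261-80292460, plus strand: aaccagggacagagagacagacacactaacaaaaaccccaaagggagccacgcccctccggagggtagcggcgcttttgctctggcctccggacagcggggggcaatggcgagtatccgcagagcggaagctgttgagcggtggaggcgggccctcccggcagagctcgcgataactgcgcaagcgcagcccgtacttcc
Rpl35, chr2:39005102-39005301, minus strand: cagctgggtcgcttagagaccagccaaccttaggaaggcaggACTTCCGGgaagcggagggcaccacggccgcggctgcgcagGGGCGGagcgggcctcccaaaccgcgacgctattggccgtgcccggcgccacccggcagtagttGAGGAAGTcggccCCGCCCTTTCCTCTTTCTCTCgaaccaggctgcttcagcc
Rpl4, chr9:64173217-64173416, plus strand: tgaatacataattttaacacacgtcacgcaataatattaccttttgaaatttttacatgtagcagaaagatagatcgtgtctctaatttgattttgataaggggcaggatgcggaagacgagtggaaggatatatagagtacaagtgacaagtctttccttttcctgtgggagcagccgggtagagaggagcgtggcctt

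The promoters of Rps6, whose protein is phosphorylated in response to mTOR signalling, Rpl35 and Rps9 started within a pyrimidine run, of 10, 18 and 9 bases. In Rpl35 this run overlaps an SP/KLF match, and its 200 bases also held both the ETS and the PU.1 motif. Rps6 and Rpl11 held the ETS motif, and Rps19 and Rps3 an SP/KLF match. The promoters of Rpl22, Rpl5, Rpl4 and Rps15 held none of the marked letters. RefSeq windows from 250 bases before to 50 after the start matched 39 members by symbol. The ETS motif was present in 8 of these 39 windows (20.5%), against 5.52% of 16522 such windows in all, and the pyrimidine run in 10 of 39 (25.6%), against 8.67%. The PU.1 motif, which shares its last letters with the ETS motif but cannot match at the same place, was in 2 of 39 (5.13%), against 3.12%. The SP/KLF motif was in 51.3% of the members' windows and 48% of all windows. The other motifs were in 5 windows for the E-box CACGTG (12.8%, against 8.11%), 2 for the YY1 motif AAGATGGC (5.13%, against 3.29%), 1 for the RUNX motif AACCACA (2.56%, against 4.79%) and 2 for the TATA motif TATAAA (5.13%, against 12.9%). Matches on both strands were counted, and a match is a description of the letters and not of binding.

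The RP promoters were open in all 4 groups and differed little between them. Their regions were 523 to 2572 bp wide with a median GC content of 60.9%, and their mean accessibility per length, a median of 48.4 CPM per kb, was above the 25.02 of all promoter regions. Per length, Rps19 was the most accessible at 91.5 CPM per kb, followed by Rpl27 at 78.3 and Rpl37 at 75.3, while Rpl4 at 27.2, Rpl6 at 28.1 and Rpl8 at 29.6 were the least. Even the lowest of these was above the median promoter region. The highest of the 4 group means exceeded the lowest by a median of 1.32-fold over the 45 members, with a range from 1.15-fold for Rps13 to 1.78-fold for Rpl22. None of the 45 spanned more than 2-fold and 82.2% spanned less than 1.5-fold, whereas 31.8% of promoter regions and 71.8% of all regions spanned more than 2-fold. The promoters of 29 housekeeping genes outside the ribosome lay close by, with a median of 1.39-fold and 3.45% over 2-fold.

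**Figure D1:**
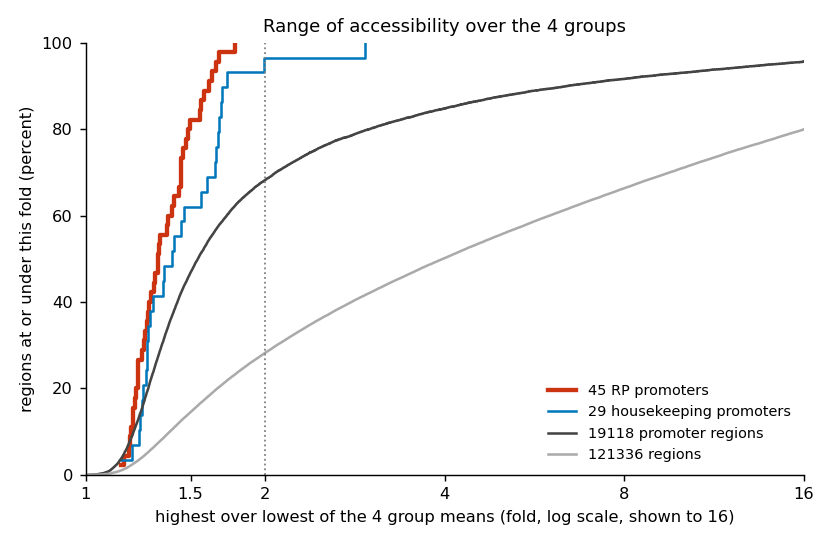
Cumulative share of regions (y axis, percent) by the ratio of the highest to the lowest of the 4 group means (x axis, fold on a log scale, shown to 16-fold) for the RP promoters, housekeeping promoters, all promoter regions and all regions. The RP curve is complete at 1.78-fold, left of the dotted line at 2-fold, which 31.8% of promoter regions and 71.8% of all regions exceed.

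Libraries of a group agreed closely except in WT-GMP. The coefficient of variation over 3 libraries had a median over the members of 13.8% in WT-GMP and of 4.54% in URE-GMP, while the LSK groups had 5.38% (WT) and 5.65% (URE). Over all promoter regions the medians in the same order were 14.0%, 6.56%, 7.18% and 8.41%. The member with the widest spread was Rpl19, whose protein lies in the large subunit, with 55.3, 28.5 and 25.5 CPM in WT-GMP replicates 1 to 3. Rpl4, also of the large subunit, had 47.3, 27.6 and 24.4 CPM there. In both, replicate 1 alone was high. Without scaling beyond the library total, RP promoters took 0.176% to 0.191% of the counts in the WT libraries of LSK and 0.205% to 0.208% in the URE libraries. In GMP the shares were 0.192% to 0.214% (WT) and 0.210% to 0.213% (URE).

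**Figure D2:**
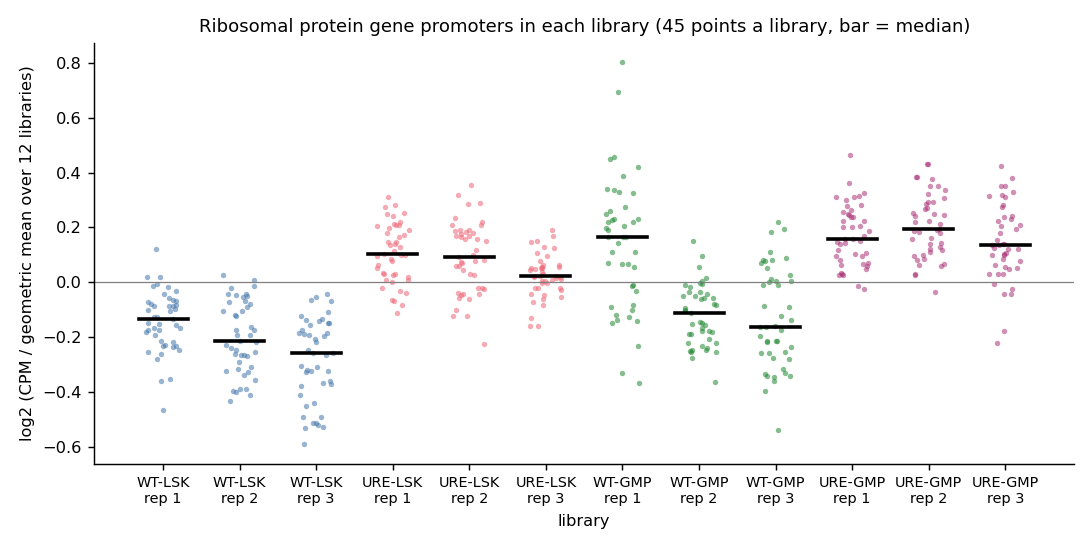
Accessibility of the 45 RP promoters in each of the 12 libraries (x axis), as log2 of the CPM over the geometric mean of that promoter over all libraries (y axis), with 1 point a promoter and a bar at the median. The WT-LSK medians lie between -0.13 and -0.26, and WT-GMP replicate 1, at 0.17, lies away from the other WT-GMP libraries at -0.11 and -0.16.

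The first comparison asked what the loss of the Spi1 element does at RP promoters in LSK. The fitted log2 fold change of URE against WT was above 0 in all 45 members, or in 27 under scaling to housekeeping promoters, and small, with a median of 0.27 (0.14 to 0.45) or 0.01 under that scaling. None was called, a call being an adjusted p under 0.05 and a change of more than 2-fold. Tests throughout are edgeR quasi-likelihood tests with Benjamini-Hochberg adjustment over all 121336 regions, and p-values measure the spread between these samples. By p alone, 28 of 45 were higher and 0 lower, against 27.9% of all regions higher and 28.9% lower. For the 2-fold call the count of 0, which was also 0 with DESeq2, compared with 37.5% of all regions and 11.5% of promoter regions. An unadjusted p under 0.05 was found for 33 members (73.3%), against 61.6% of all regions and 56.6% of promoter regions. In 41 of the 45 members the 3 URE-LSK libraries all lay above the 3 WT-LSK libraries, as they did in 35.3% of all regions and 50.5% of promoter regions. Without WT-LSK replicate 3 only 8 of the 28 members passed. The median of all promoter regions was itself 0.22, that of housekeeping promoters 0.30 and that of all regions 0.14.

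The largest difference in LSK was that of Rpl22, which encodes a protein of the large subunit that is needed for normal lymphocyte development. It had 37.3, 38.2 and 36.7 CPM in the WT-LSK libraries and 49.3, 49.96 and 53.5 in the URE-LSK libraries. The groups did not overlap, and the log2 fold change was 0.45 ± 0.07 (SE) with an adjusted p of 5.17e-05. Rps23, next to it, had 40.0, 35.3 and 30.9 CPM in WT-LSK against 46.8, 43.4 and 53.2 in URE-LSK (0.43 ± 0.10, adjusted p = 0.00197). Its protein sits at the decoding centre of the small subunit, and the 3 URE libraries were above the 3 WT libraries although WT-LSK spread widely. Without WT-LSK replicate 3 the value was 0.28 ± 0.11 (adjusted p = 0.0483).

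Rps19 is the gene most often mutated in Diamond-Blackfan anaemia. Its promoter had 77.4, 80.9 and 74.3 CPM in WT-LSK and 106, 101 and 103 in URE-LSK, with no overlap (0.42 ± 0.06, adjusted p = 3.91e-05). Rpl11, whose protein joins Rpl5 and 5S rRNA in the particle that binds Mdm2 when ribosome assembly fails, had 29.8, 29.7 and 29.7 CPM in WT-LSK and 38.4, 37.6 and 37.1 in URE-LSK (0.34 ± 0.07, adjusted p = 0.000718). Its partner Rpl5 had 38.7, 33.8 and 31.1 CPM in WT-LSK and 38.8, 39.3 and 41.0 in URE-LSK. The WT-LSK library highest for Rpl5 nearly reached the lowest URE-LSK library, and the difference did not pass the test (0.20 ± 0.09, adjusted p = 0.0778).

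Rps14 had 45.4, 46.6 and 43.4 CPM in WT-LSK and 60.4, 57.4 and 54.1 in URE-LSK, without overlap (0.34 ± 0.07, adjusted p = 0.000763). Rpl3, whose protein lies near the peptidyl transferase centre, had 37.4, 33.5 and 31.3 CPM against 45.04, 40.4 and 44.1 (0.34 ± 0.09, adjusted p = 0.00324). Without WT-LSK replicate 3 its value was 0.22 ± 0.09 and did not pass (adjusted p = 0.0603). Rps6 had 35.2, 38.1 and 34.2 CPM in WT-LSK and 41.0, 44.2 and 37.1 in URE-LSK. Here the groups overlapped, and the log2 fold change of 0.18 ± 0.10 did not pass (adjusted p = 0.121). Rps3, whose protein also acts in DNA repair, gave 0.20 ± 0.10 (adjusted p = 0.0999), and the smallest values were those of Rps13 with 0.14 ± 0.09, Rpl24 with 0.16 ± 0.13 and Rpl18 with 0.17 ± 0.10, none of which passed.

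In GMP the same comparison gave a median log2 fold change of 0.24 (-0.17 to 0.42), with 40 of 45 members above 0, or a median of -0.01 and 20 of 45 under scaling to housekeeping promoters. None was called with edgeR or DESeq2, against 39.7% of all regions and 13.0% of promoter regions. An unadjusted p under 0.05 was found for 26 members (57.8%), against 64.6% of all regions and 55.6% of promoter regions. By adjusted p alone 22 were higher and 0 lower, against 29.6% and 31.2% of all regions. The 3 URE-GMP libraries lay above all 3 WT-GMP libraries in 17 members, close to the background of 33.3% of regions and 38.3% of promoter regions. The medians were 0.16 over all promoter regions, 0.26 over housekeeping promoters and 0.06 over all regions. Without WT-GMP replicate 1 the members' median was 0.26, with 44 of 45 above 0 and 31 past the test, of which 19 had passed with it, and 3 others no longer passed.

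Rps9, a small subunit protein with a role in decoding accuracy, had the largest difference in GMP. It had 36.6, 28.8 and 26.4 CPM in WT-GMP against 38.2, 43.4 and 41.2 for URE-GMP (0.42 ± 0.10, adjusted p = 0.00235). The groups did not overlap, though WT-GMP replicate 1 came close. Rpl7a, of the large subunit, followed with 59.2, 46.3 and 44.1 CPM against 64.8, 66.6 and 58.6 (0.35 ± 0.10, adjusted p = 0.00762), where WT-GMP replicate 1 lay above the lowest URE-GMP library. Rps28, with 0.34 ± 0.14 (adjusted p = 0.045), also overlapped, and it did not pass without WT-GMP replicate 2 (0.28) or 3 (0.24), URE-GMP replicate 1 (0.30) or 2 (0.29), or URE-LSK replicate 1 (0.34) or 2 (0.34). Rps19 had 93.5, 98.7 and 105 CPM in WT-GMP against 118, 119 and 126 for URE-GMP, again without overlap (0.29 ± 0.06, adjusted p = 0.000863).

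Rpl11 had 30.8, 29.6 and 30.4 CPM in WT-GMP against 37.1, 36.9 and 36.9 for URE-GMP, without overlap (0.29 ± 0.07, adjusted p = 0.00258). Rpl22 had 55.7, 53.7 and 59.0 CPM against 64.6, 65.8 and 69.3 (0.25 ± 0.07, adjusted p = 0.00595), without overlap. At the other end, Rpl4 had 47.3, 27.6 and 24.4 CPM in WT-GMP against 30.5, 32.2 and 25.03 for URE-GMP, a log2 fold change of -0.17 ± 0.18 (adjusted p = 0.434). This value turned to 0.13 ± 0.11 without WT-GMP replicate 1. Rpl35, whose promoter holds the PU.1 motif, had 46.1, 35.2 and 36.8 CPM in WT-GMP against 40.9, 39.1 and 35.5 for URE-GMP (-0.03 ± 0.10, adjusted p = 0.825). Rpl14, with -0.02 ± 0.10, was the third lowest and Rpl19, with -0.01 ± 0.20, came next. Without WT-GMP replicate 1 the values were 0.06 ± 0.08 for Rpl35, 0.08 ± 0.07 for Rpl14 and 0.38 ± 0.10 for Rpl19, which then passed (adjusted p = 0.00593). For Rpl5 the value was 0.08 ± 0.09 (adjusted p = 0.477).

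18 members passed the test in both cell types, Rpl11, Rpl22, Rpl3, Rps14 and Rps19 among them, 40.0% of the members against 17.7% of all regions and 24.5% of promoter regions that were higher in both. 8 members, 17.8%, passed in no comparison of genotypes or cell types (Rpl10a, Rpl24, Rpl35, Rpl4, Rpl6, Rpl8, Rps13 and Rps3), against 8.7% of all regions and 15.7% of promoter regions. The difference between the cell types in the genotype effect, tested as an interaction, passed for 0 of 45 members, with edgeR and with DESeq2, and 2 members had an unadjusted p under 0.05 (30.3% of all regions). Over all regions 16.8% passed this test and 14.0% were called. Of promoter regions 19.4% had an unadjusted p under 0.05, 4.39% passed as higher and 4.79% as lower, and 4.95% were called. The interaction was most negative for Rpl4 (-0.50 ± 0.26, adjusted p = 0.203), Rpl19 (-0.39 ± 0.29) and Rps23 (-0.32 ± 0.14), and largest for Rps28 (0.13 ± 0.20). Without WT-GMP replicate 1 it was -0.14 ± 0.14 for Rpl4 and 0.05 ± 0.14 for Rpl19.

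**Figure D3:**
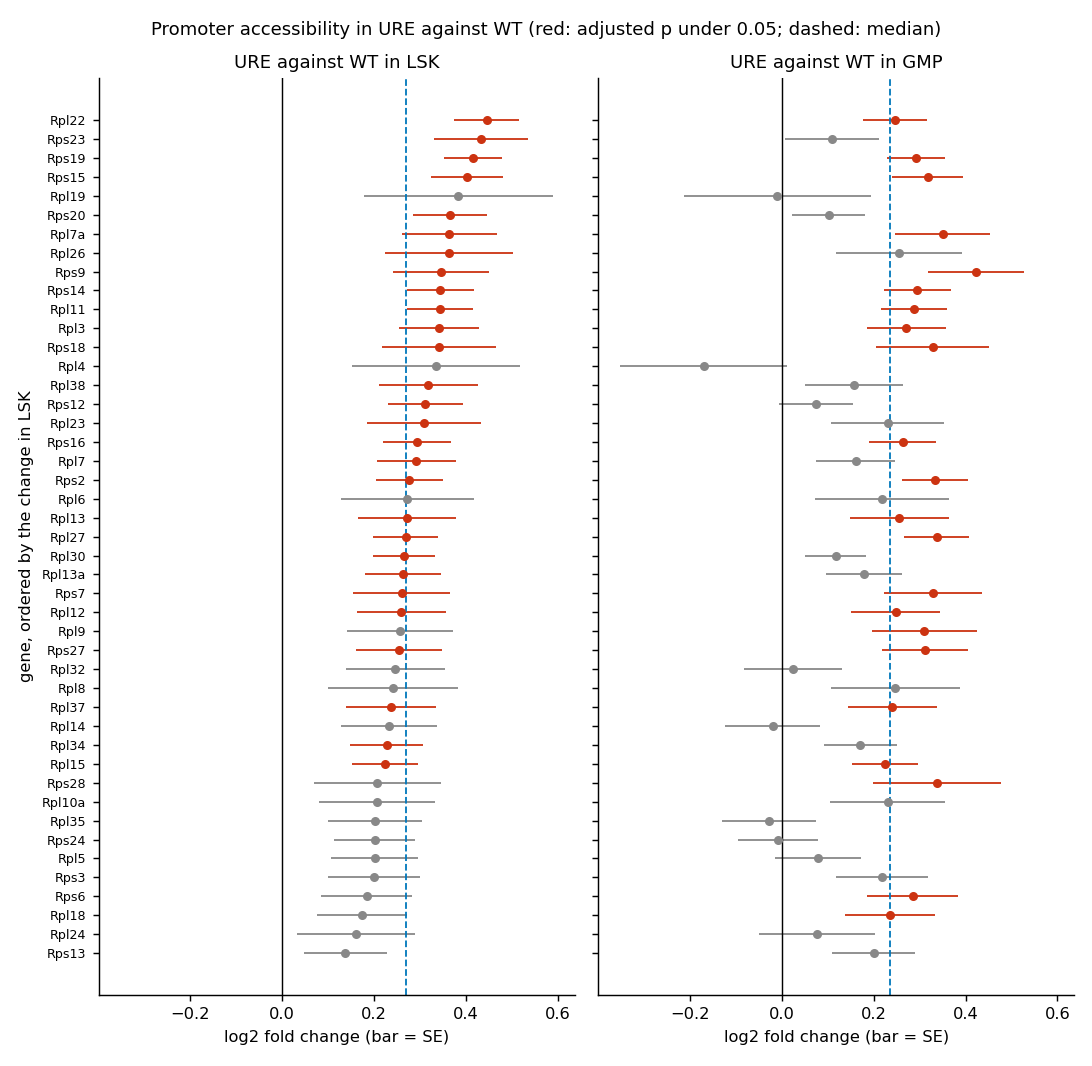
Log2 fold change of URE against WT (x axis, bars are SE) for each of the 45 RP promoters (y axis, ordered by the value in LSK), in LSK on the left and GMP on the right. Red points passed an adjusted p of 0.05, 28 in LSK and 22 in GMP, and the dashed lines mark the medians of 0.27 and 0.24, which became 0.01 and -0.01 when libraries were scaled to housekeeping promoters.

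These small shifts depended on how the libraries were scaled. The values above use TMM factors from all regions. In LSK the members' median was 0.32 with RLE size factors, 0.22 with GC content offsets, 0.15 by library size alone, 0.09 with TMM on promoter regions, 0.09 with loess offsets against abundance and 0.01 when scaled to the housekeeping promoters. The number of members higher past the test went from 36 to 1 over these settings. The median of all regions moved as well, between 0.28 and -0.12 in LSK and between 0.20 and -0.20 in GMP. In GMP the members' median lay between 0.29 (RLE) and 0.04 (loess) and was -0.01 under the housekeeping scaling, where 0 members were higher and 6 lower. The sign of the difference changed between scalings in 21 members in LSK and 25 in GMP.

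Only Rpl22 in LSK passed in the same direction under all 7 scalings, with log2 fold changes from 0.19 to 0.49 and a highest adjusted p of 0.0481. In GMP no member did. The distance of the RP promoters from the median promoter region could move only with the loess and GC content offsets. The other 5 of the 7 scalings apply 1 factor per library, which shifts all regions alike. In LSK this distance was 0.05 with those 5, -0.01 with loess offsets and 0.09 with GC content offsets. In GMP it was 0.07 to 0.08 with those 5, 0.02 with loess offsets and 0.03 with GC content offsets.

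Turned around, scaling all libraries to the RP promoters themselves changed the balance of calls over the genome. With TMM on all regions, 16501 regions were called higher and 29035 lower in URE-LSK, so that 63.8% of calls were lower. Scaled to the RP promoters, 11686 were higher and 33027 lower, 73.9% of calls. In GMP the counts moved from 18974 higher and 29185 lower (60.6%) to 15338 and 33121 (68.3%). The members set this scale themselves, so a shift they share was removed beforehand and only differences among them could show. Of all regions, nearly all of which did not set the scale, 47.9% passed in LSK and 55.0% in GMP. Of the 45 members, 0 differed from the rest in LSK and 4 did in GMP. These were Rps9 (0.23 ± 0.08, adjusted p = 0.0238), which was higher, and Rpl14, Rpl35 and Rpl4, which were lower by 0.21 to 0.34 on the log2 scale.

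**Figure D4:**
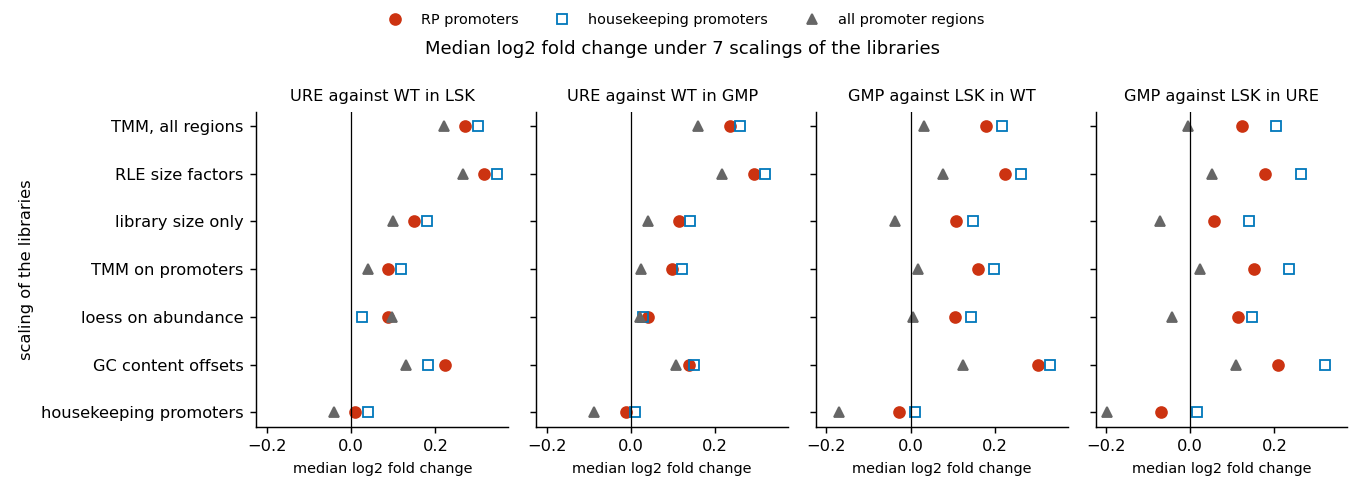
Median log2 fold change (x axis) of the RP promoters, housekeeping promoters and all promoter regions under 7 scalings of the libraries (y axis), in 1 panel for each of 4 comparisons. Scalings that apply 1 factor per library shift the 3 kinds of promoter alike by construction. Under housekeeping scaling the RP median crosses to -0.01 in the GMP genotype comparison, -0.03 in the WT step and -0.07 in the URE step.

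The step from LSK to GMP separated the members from each other more than the genotype did. In WT the median log2 fold change of GMP against LSK was 0.18 (-0.20 to 0.67), -0.03 under housekeeping scaling, with 32 of 45 above 0. No member was called with edgeR or DESeq2, against 37.8% of all regions and 13.5% of promoter regions. An unadjusted p under 0.05 was found for 18 members (40.0%), against 63.2% of all regions and 51.2% of promoter regions. By adjusted p 16 were higher and 0 lower, against 30.2% and 28.6% of all regions, but 7 were higher and 13 lower under housekeeping scaling. The 3 WT-GMP libraries were all above the 3 WT-LSK libraries in 15 members, against 32.7% of all regions, and all below in Rps27. The medians of all promoter regions and of all regions were 0.03 and -0.01, and that of the housekeeping promoters was 0.22.

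WT-GMP replicate 1 weighed heavily here. Without it the members' median was 0.01, with 23 of 45 above 0, and 10 were higher and 8 lower past the test. Of the members past the test with all libraries, 10 still passed and 6 did not. Leaving out WT-LSK replicate 3 gave a median of 0.04, with 8 higher and 3 lower. The median of all promoter regions fell in the same fits, to -0.08 and -0.07.

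In URE mice the step had a median of 0.12 (-0.21 to 0.47), -0.07 under housekeeping scaling, with 29 of 45 above 0. None was called with either tool, against 49.1% of all regions and 19.7% of promoter regions. An unadjusted p under 0.05 was found for 12 members (26.7%), against 70.5% of all regions and 55.3% of promoter regions. By adjusted p 9 were higher and 0 lower, against 35.4% and 32.6% of all regions, but 8 were higher and 6 lower by library size and 4 higher and 15 lower under housekeeping scaling. With the replicate number as a block, 18 were higher and 1 lower. In 18 members the URE-GMP libraries were all above the URE-LSK libraries, against 37.4% of all regions. The medians of all promoter regions and of housekeeping promoters were -0.01 and 0.20.

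The steps in WT and in URE share no library. Of the 16 members past the test in WT and the 9 in URE, 8 passed in both: Rpl22, Rpl27, Rpl3, Rpl38, Rpl9, Rps12, Rps16 and Rps19. This is 17.8% of the members, against 25.0% of all regions and 17.3% of promoter regions that were higher in both. Without WT-GMP replicate 1 the count was again 8, with Rpl14 in and Rpl9 out. Rps12, whose protein lies in the small subunit, had 34.1, 32.9 and 30.6 CPM in WT-LSK and 55.4, 48.6 and 51.0 in WT-GMP. This was the largest step in WT, with no overlap (0.67 ± 0.08, adjusted p = 6.3e-06). In URE it had 40.5, 37.4 and 43.2 CPM in LSK and 52.6, 54.7 and 55.9 in GMP, again apart (0.43 ± 0.08, adjusted p = 0.00019).

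Rpl22 was next in WT, with the LSK and GMP values given above (0.59 ± 0.07, adjusted p = 5.2e-06 in WT and 0.39 ± 0.07, adjusted p = 0.000123 in URE). Its groups thus ran from 37.4 ± 0.75 CPM (SD, n = 3) in WT-LSK to 50.9 ± 2.29 for URE-LSK. WT-GMP followed with 56.1 ± 2.68 and URE-GMP with 66.6 ± 2.42. With TMM factors each library of a group lay above each library of the group before it. The closest were URE-LSK replicate 3 at 53.5 CPM and WT-GMP replicate 2 at 53.7. Under housekeeping scaling the genotype effect of Rpl22 in GMP was -0.00357. Rpl3 had 50.2, 42.5 and 45.6 CPM in WT-GMP against 54.8, 57.1 and 54.9 for URE-GMP, above the LSK values of its own genotype (0.44 ± 0.09 and 0.36 ± 0.09, adjusted p = 0.000519 and 0.00142), and its WT step was 0.28 ± 0.09 without WT-LSK replicate 3. Rpl38, needed for the translation of Hox mRNAs in the embryo, gave 0.53 ± 0.11 in WT, 0.32 ± 0.08 without WT-GMP replicate 1, and 0.37 ± 0.11 in URE. Rpl9, which shares its region with Lias, gave 0.42 ± 0.12 and 0.47 ± 0.11, the largest step in URE. Its WT step did not pass without WT-GMP replicate 1 (0.22 ± 0.09, adjusted p = 0.0583) or without WT-LSK replicate 3 (0.24 ± 0.11, adjusted p = 0.0867).

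In 13 members (28.9%) the GMP libraries were all above the LSK libraries in both genotypes, as they were in 26.2% of all regions and 20.4% of promoter regions. Rps12, Rpl22 and Rpl3 passed in both genotypes under all 7 scalings, and in WT so did Rpl14, Rpl38, Rps20 and Rps23, in URE Rpl9. Without WT-GMP replicate 1 the WT step was 0.55 ± 0.08 for Rps12 and 0.53 ± 0.07 for Rpl22. Rpl19, by contrast, passed in WT (0.52 ± 0.21, adjusted p = 0.0386) with groups that overlapped, and its value was 0.04 ± 0.10 without that library.

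Other members were level between the cell types or had values below 0. Rps27, which shares its region with Rab13, had 34.7, 35.4 and 31.6 CPM in WT-LSK and 31.5, 29.8 and 27.1 in WT-GMP. The GMP libraries were all below the LSK libraries (31.5 against 31.6 at the closest), and the difference did not pass (-0.20 ± 0.09, adjusted p = 0.0758). Leaving out any 1 of the WT libraries it passed. The value was -0.31 ± 0.09 (adjusted p = 0.0095) without WT-GMP replicate 1 and -0.34 ± 0.10 (adjusted p = 0.00951) without WT-LSK replicate 3. In the fits without 1 WT library the WT step of the median promoter region also fell, from 0.03 to between -0.04 and -0.08. Rpl12 gave -0.16 ± 0.10 in WT and -0.17 ± 0.10 in URE, and Rpl6 gave -0.15 ± 0.15 and -0.20 ± 0.14. Without WT-GMP replicate 1 the WT steps were -0.31 ± 0.08 for Rpl12 (adjusted p = 0.00697) and -0.41 ± 0.12 for Rpl6 (adjusted p = 0.00927), and both passed. The lowest step in URE was that of Rpl35 (-0.21 ± 0.10, adjusted p = 0.0744). It passed without any 1 of the WT libraries or without URE-LSK replicate 3 (-0.25 to -0.28). The WT libraries enter this step only through the shared scaling and estimate of the spread. In these fits the URE step of the median promoter region also fell, from -0.01 to between -0.04 and -0.05. Rpl11 was level, with 0.03 ± 0.07 in WT and -0.03 ± 0.07 in URE.

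Scaling the libraries to the RP promoters removed a shift they share, so that only differences among the members could show. With this scaling 18 members differed between WT-GMP and WT-LSK, 8 higher and 10 lower, against 58.5% of all regions. In URE 12 differed, 5 higher and 7 lower, against 66.8%. Rps12, Rpl22, Rpl38, Rpl3 and Rpl9 were on the higher side and Rps27, Rpl12, Rpl6, Rpl34 and Rps14 on the lower side in both genotypes. The SD of the log2 fold changes over the 45 members was 0.23 for the WT step and 0.18 for the URE step, larger than the median SE of 0.10 and 0.10 of a single member. For the genotype effect it was 0.08 in LSK and 0.13 in GMP, beside a median SE of 0.10 and 0.10. Each SE also holds deviations of whole libraries that the members share, which the SD over members leaves out. SD and SE are therefore not like measures here.

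As a description across genes, which are not independent replicates, the WT and URE steps of the 45 members had a Pearson correlation of 0.80, and 0.84 over all promoter regions. It was 0.78 without WT-GMP replicate 1 and 0.74 with GC content offsets. The genotype effects in LSK and GMP had a correlation of 0.14 over the members and 0.80 over all promoter regions, and it was 0.53 over the members with GC content offsets.

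**Figure D5:**
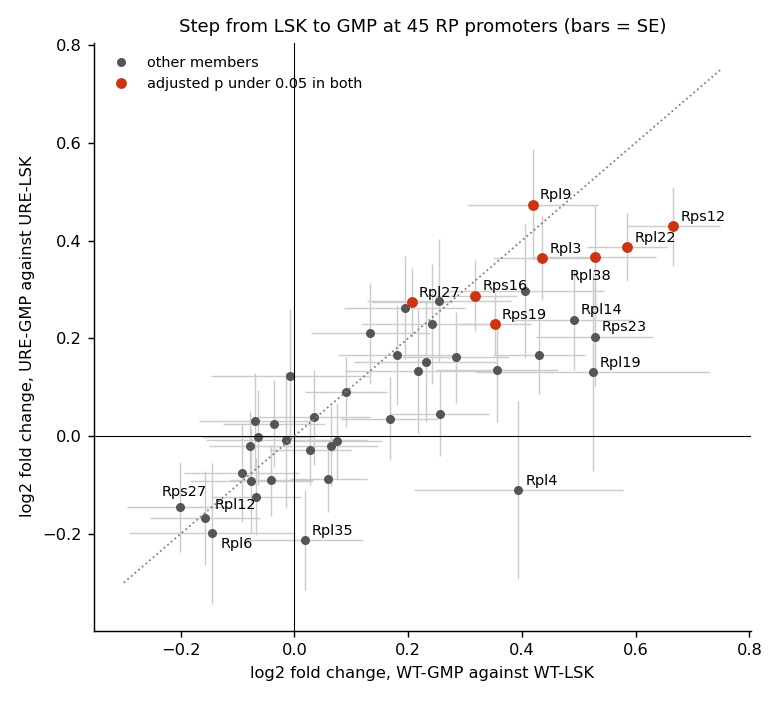
Log2 fold change of GMP against LSK in WT (x axis) and in URE (y axis) for 45 RP promoters, with SE bars, the 8 that passed in both in red and the line of equal change dotted. Rps12, Rpl22 and Rpl38 lie far to the right at 0.67, 0.59 and 0.53, and Rpl4 and Rpl19, whose WT-GMP replicate 1 was high, lie below the line. Scaling to housekeeping promoters shifts the medians from 0.18 and 0.12 to -0.03 and -0.07.

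The subunits gave like medians, with no test between them. The median genotype effect was 0.26 over 28 large and 0.29 over 17 small subunit members in LSK, and 0.23 and 0.29 in GMP. The median step was 0.19 and 0.13 in WT, and 0.11 and 0.12 in URE. Higher past the genotype test in LSK were 57.1% of large and 70.6% of small subunit members, against 38.7% of all promoter regions. In GMP the shares were 39.3% and 64.7%, against 35.2%. In 10 members the region also covered the start of another protein-coding gene, as for Rpl4 (Zwilch), Rpl7a (Med22), Rpl12 (Lrsam1) and Rps28 (Ndufa7), and their counts belong to both promoters. Their median genotype effect was 0.26 in LSK and 0.28 in GMP, against 0.27 and 0.23 for the other 35. Higher past the genotype test were 60% of the 10 and 62.9% of the 35 in LSK, and 80% and 40% in GMP. In the WT step the shares were 10% and 42.9%, against 25.1% of all promoter regions.

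RP genes have many processed pseudogenes that repeat their exons, so that reads from exons can be hard to place. In 19 members at least 30% of the region lay in the gene's own exons, and their medians of 0.27 in LSK and 0.26 in GMP compared with 0.27 and 0.22 in the other 26. In the regions taken as a whole, 9 members held the ETS motif (20%, against 7.41% of promoter regions) with medians of 0.34 in LSK and 0.26 in GMP, compared with 0.27 and 0.23 in the members without it. The 3 members with the PU.1 motif were Rpl13a, Rpl35 and Rpl5 (6.67%, against 8.21%), and their medians were 0.20 and 0.08.

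Other genes of the translation machinery and housekeeping genes are given for comparison. Past the test in LSK, 24 of 36 other cytosolic RP promoters were higher (66.7%), as were 44 of 77 mitochondrial RP promoters (57.1%), 22 of 39 of ribosome biogenesis genes (56.4%), 9 of 17 of translation factors whose mRNAs carry a TOP (52.9%) and 21 of 29 housekeeping promoters (72.4%). For the members the share was 62.2%, and for all promoter regions 38.7%. In GMP the shares in the same order were 44.4%, 40.3%, 38.5%, 52.9% and 69.0%, with 48.9% for the members and 35.2% for all promoter regions. In these lists 1 promoter was called in either cell type, that of the housekeeping gene Pgk1, a glycolytic enzyme, with 1.55 ± 0.10 in LSK and 1.48 ± 0.10 in GMP.

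Rpl13, Rpl18, Rpl38, Rps14 and Rps18 had further regions within 500 bp of a start site. That of Rpl38, on chromosome 11 from 114667969 to 114668180, had means of 3.18 CPM in LSK and 6.55 in GMP of WT mice, 3.84 and 6.17 in those of URE mice, and was the only one of the 51 regions past the 2-fold call, in the WT step (1.03 ± 0.23, adjusted p = 0.00144). It lies 344 bp from the nearest start site of Rpl38. The second regions of Rpl13 and Rps18 held under 6 CPM in every group, and their genotype differences did not pass. The other regions of Rps14 lie on chromosome 18 from 60746935 to 60747379 and from 60747635 to 60749080, at another annotated start site. They are apart from its promoter region used above, which runs from 60774170 to 60774917. The first gave 0.64 ± 0.15 in LSK and 0.65 ± 0.16 in GMP (adjusted p = 0.00232 and 0.00206). The second gave 0.43 ± 0.16 and 0.22 ± 0.16 (adjusted p = 0.0317 and 0.247). The second region of Rpl18 gave 0.15 ± 0.11 and 0.27 ± 0.11 (adjusted p = 0.275 and 0.0465). Its steps were 0.25 ± 0.11 in WT and 0.37 ± 0.11 in URE (adjusted p = 0.0710 and 0.00792). The region of Rpl18 used above gave -0.06 and -0.003. The first of the other Rps14 regions had steps of -0.47 ± 0.16 and -0.46 ± 0.15 (adjusted p = 0.0178 and 0.0138). The region of Rps14 used above gave -0.04 and -0.09 and did not pass. The second region of Rps18 passed in the URE step (0.59 ± 0.23, adjusted p = 0.0332).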

How the data were processed

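ATAC-seq (OmniATAC) libraries from 12 samples were analysed. Per the methods of the study, the authors trimmed reads with cutadapt, aligned them to GRCm38 with Bowtie2, called peaks with Genrich in each group, merged them with bedtools and counted reads with featureCounts. The deposited table holds these raw counts in 121336 regions, and the unit counted (fragment or read end) is not given in the sources used here. Region starts were read as 0-based and are given 1-based. Library totals were 23072701 to 62204826. All columns were used (0 left out).

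Start sites came from the GENCODE M21 basic annotation. Differences were tested with the two-sided edgeR quasi-likelihood test (edgeR 4.0.16, limma 3.58.1, R 4.3.3) with TMM factors, 1 coefficient per group and all 12 libraries, with Benjamini-Hochberg adjustment over all 121336 regions. Every p-value printed comes from this test unless DESeq2 (1.42.0) is named. It comes from the fit of all 12 libraries with TMM factors, except where another scaling or a left-out library is named. The steps were tested on simulated data. Some marker genes are not reported here. The members and lists were chosen with earlier results of these data known. Named were members called in any contrast, the 3 largest and 3 smallest changes in each, the 3 highest and 3 lowest per kb, members chosen for their role, and those without a region. Figures and summaries used Python 3.11.15, pandas 2.3.3 and matplotlib 3.10.9. Alternatives were other scalings, DESeq2, other filters and distances, every region of a member, the groups of a contrast alone, a replicate block and leaving out each library.

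The study's methods give 3 mice for each group, but nothing used here ties a library to a mouse, so p-values measure the spread between these samples. Same-numbered libraries deviated together in GMP between genotypes (correlations 0.117, 0.236 and 0.422) and between cell types in WT (0.223, 0.257 and 0.264) and in URE (0.112, 0.319 and 0.172), which met the criterion of over 0.1 in every pair. In LSK between genotypes they did not (0.150, 0.0627 and -0.109). The labels do not say that a number marks a mouse or a day.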

Additional observations from a re-analysis of the deposited data

How the results depend on the processing

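The genotype shift depended on the scaling. In LSK the number of RP promoters past the test was 13 by library size (median log2 fold change 0.15), 6 with TMM on promoter regions (0.0884), 3 with loess offsets (0.0877) and 1 with scaling to housekeeping promoters (0.00883). In GMP it was 8 (0.12), 5 (0.0985), 2 (1 higher, 1 lower, 0.0410) and 6 (all lower, -0.0126) in the same order, and 12 with GC content offsets and 12 when regions under a mean CPM of 2 were dropped. The GMP genotype effect of Rpl22 was -0.00357 under housekeeping scaling. For the WT step GC content offsets gave 25 past the test with a median of 0.302, housekeeping scaling gave a median of -0.0283, and counting every region of a member gave 1 call. For the URE step 18 passed with RLE size factors, 14 by library size (8 higher, 6 lower), 17 with TMM on promoter regions (16 higher, 1 lower), 18 with GC content offsets, 19 under housekeeping scaling (4 higher, 15 lower, median -0.0691), 16 with DESeq2 and 18 with the groups of the contrast alone. The causes were not tested.

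With the replicate number as a block 19 members passed in the URE step (18 higher, 1 lower), and 32, 20 and 19 in the LSK genotype, GMP genotype and WT step comparisons. Between genotypes in LSK the libraries shared only a number. No other count moved by over 1.5 times under the block.

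Leaving out 1 library gave 8 (without WT-LSK replicate 3) to 27 members past the test in LSK, with medians from 0.169 to 0.295. In LSK 14 passed without WT-LSK replicate 2 and 18 without WT-GMP replicate 2. In GMP 12 (without WT-GMP replicate 2) to 31 (without WT-GMP replicate 1) passed, and 14 without URE-GMP replicate 2. The WT step gave 11 to 18 with medians from 0.0148 (without WT-GMP replicate 1) to 0.181, the URE step 8 to 15 with medians from 0.0680 to 0.151, and the interaction 0 to 0. No fit without 1 library called a member. Of the alternatives to the counts and medians of the 5 contrasts, 345 stayed within the limits of 1.5 times or 1 SD and 42 did not.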

Other observations

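Between 500 and 1000 bp of a start site, small regions beside 4 members passed the 2-fold call in some comparison, and they were chosen after their values were seen. Regions in that range beside Rpl11, Rpl13a, Rpl15, Rpl34, Rpl35 and Rpl37 did not pass it. Of all regions, 37.5% to 49.1% were called in a single comparison between groups, so such calls were common. A region 952 bp from a start site of Rpl12 had means of 0.189 CPM in LSK and 3.64 in GMP of WT mice, and 0.181 and 3.62 in those of URE mice. A region 633 bp from a start site of Rpl18 had means of 1.68 CPM in WT-LSK and 0.476 in URE-LSK, with a log2 fold change of -1.81 ± 0.34 (edgeR adjusted p = 0.000313). In GMP its means were 9.64 and 3.85 CPM (-1.31 ± 0.27, edgeR adjusted p = 0.000594). A region 898 bp from a start site of Rps15 gave 1.03 ± 0.26 between genotypes in GMP (edgeR adjusted p = 0.00264), and 1 at 874 bp from a start site of Rps24 gave -1.01 ± 0.20 in the URE step (edgeR adjusted p = 0.000288). The promoter regions of these genes differed by less than 2-fold in every comparison. To which gene these regions belong was not tested.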
